A study of Danio rerio with 6 samples.

Results

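Polycomb repressive complex 2 (PRC2) is the enzyme complex that methylates lysine 27 of histone H3, a mark of silenced genes. The 10 subunit genes read here as members were ezh1, ezh2, eed, suz12a and suz12b (catalytic and core) and jarid2a, jarid2b, aebp2, mtf2 and phf19 (accessory). Further PRC2 genes, among them rbbp4, rbb4l and phf1, are not members and were read apart as partners. The 10 members were taken by gene symbol, 1 row each, from a table of 21317 zebrafish genes. All 10 were among the 20836 genes with a mean of at least 10 normalized reads, which were tested. Histone demethylases were left out, since they remove the mark and are not part of the complex.

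RNA came from Tg(c-mybhyper:GFP) zebrafish embryos, a transgenic leukemia model in which a hyperactive c-myb is expressed and myeloid cells expand. Embryos were kept from 30 hpf (hours post-fertilization) to 72 hpf in 60 µM tanshinone I (Tan I), a diterpene quinone of the Dan-Shen root, or in DMSO, the solvent. Each group had 3 libraries, all with the same transgene, and no library of embryos without it. Reads came from embryos and not from sorted blood cells, so that fewer cells of a type and less RNA per cell cannot be told apart. How many embryos made up a library and whether the libraries were separate clutches was not stated, so p-values measure only the spread between these libraries. The study examined Tan I as a compound that acts on the EZH2 protein. The comparison here asks whether the RNA of the complex differed, and it measures neither protein nor histone methylation.

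In the complex, EZH1 or EZH2 transfers the methyl groups, SUZ12 is the scaffold, and EED binds the methylated histone tail and stimulates the enzyme. Accessory subunits, known mostly from mammals, bring the complex to DNA and define its alternative forms, with JARID2 and AEBP2 in one form and a Polycomb-like protein (PHF1, MTF2 or PHF19) in the other. Zebrafish have paralog pairs of SUZ12 and JARID2. PRC2 keeps developmental transcription factor genes silent in cells where they are not used.

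Recovered reads per library summed to between 15874701 and 16959503 in DMSO and between 20451593 and 24932190 in Tan I over the rows of the table. The Tan I libraries were thus deeper, and each was scaled by a size factor before deposit. On the first principal component (37.2% of the variance) the groups lay apart, and Tan I replicate 3 (at 9.75) was nearer to DMSO than the other Tan I libraries (at 26.7 and 24.8). Over all tested genes 536 (2.57%) were called at a limma adjusted p under 0.05, 431 higher and 105 lower in Tan I.

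No PRC2 subunit gene was called. The number of members called was 0 of 10 with limma, with edgeR's quasi-likelihood test and with DESeq2, and the lowest limma adjusted p was 0.229. At an unadjusted p under 0.05, limma gave 2 members, both lower in Tan I (eed and aebp2), and edgeR and DESeq2 each gave 1 (eed). With limma, such a p was reached by 6.50% of all genes in the lower direction and by 8.77% in the higher direction. The log2 fold change was below 0 in 9 of 10 members, against 51.5% of all tested genes, and the median over the members was -0.16, against -0.0067 over all genes. In 3 members (eed, aebp2 and mtf2) all Tan I libraries lay below all DMSO libraries, and in 0 members above. Over all genes 10.4% did not overlap in the lower direction and 10.7% in the higher direction. The study used thresholds of an unadjusted p up to 0.05 and a log2 fold change of 0.25 or more in size, with DESeq2. Applied here to the limma fit instead, they passed 0 members, against 11.3% of all genes.

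**Figure D1:**
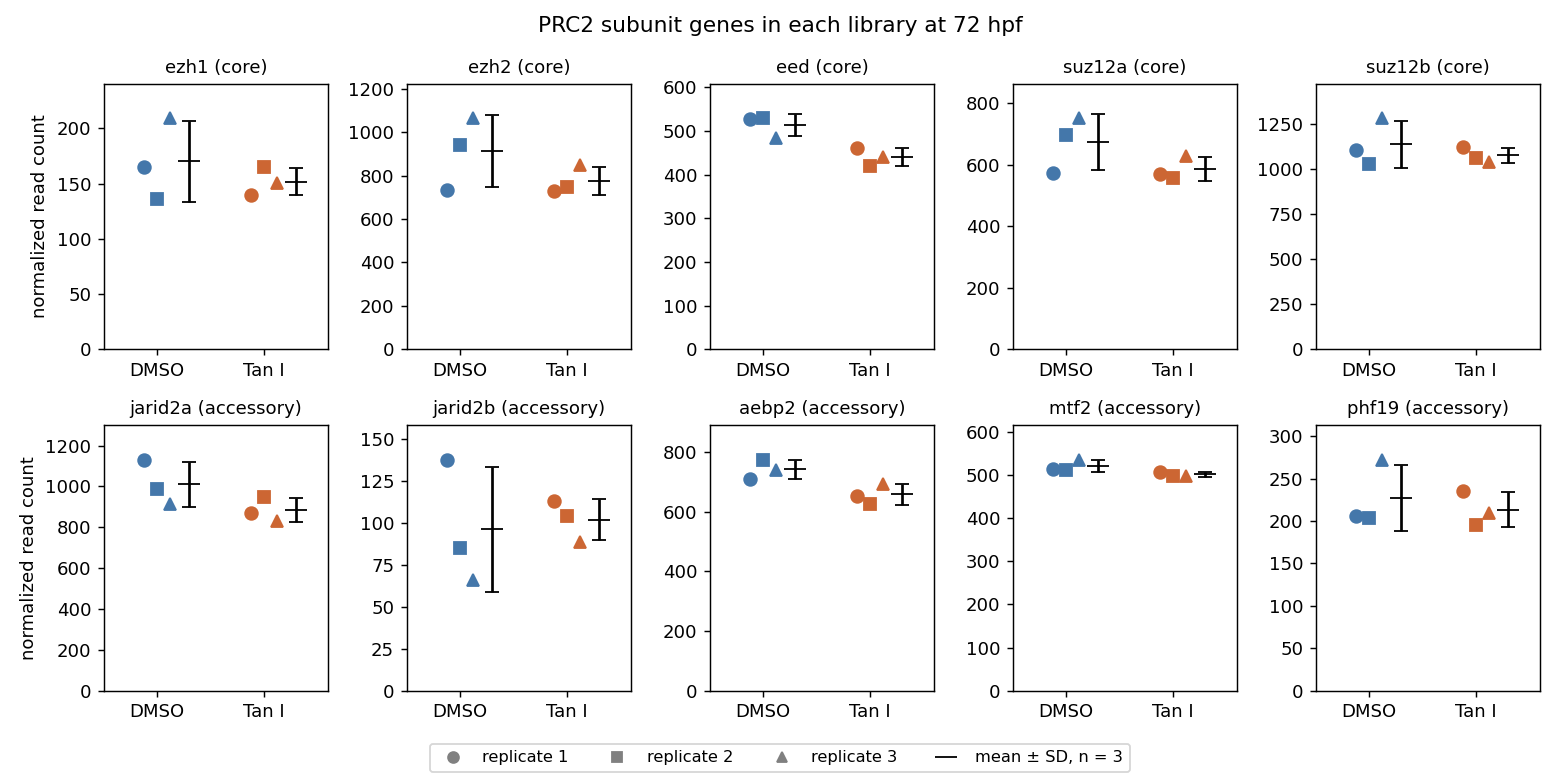
Normalized read counts of the 10 PRC2 subunit genes in each library, with the scale of the y axis set per gene and starting at 0. Points are single libraries (circle, square and triangle for replicates 1, 2 and 3) and bars are the mean ± SD of 3 libraries. In eed, aebp2 and mtf2 every Tan I point lies below every DMSO point, and in the other 7 genes the groups overlap.

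Of the catalytic subunits, ezh2 (ENSDARG00000010571), the methyltransferase used most in dividing and embryonic cells, had 732.8, 942.3 and 1063 normalized reads in DMSO replicates 1 to 3. Its Tan I values were 729.1, 748.1 and 850.0. DMSO replicate 1 lay between Tan I replicates 1 and 2, the other DMSO libraries were above all Tan I libraries, and the groups overlapped. The DMSO libraries averaged 912.8 ± 167.2 and the Tan I libraries 775.8 ± 65.0 (SD, n = 3). The log2 fold change, -0.22 ± 0.12 (SE), did not pass the threshold (limma adjusted p = 0.407). As a percentage, the difference was -14.2% with a 95% interval from -28.1% to 2.44%. The estimate depended on single DMSO libraries, being -0.37 without DMSO replicate 1 (limma adjusted p = 0.0808) and -0.10 without DMSO replicate 3 (limma adjusted p = 0.725). Each Tan I library lay below the DMSO library of the same number. With the replicate number as a block in limma, the SE was 0.078 (unadjusted p = 0.0125, adjusted p = 0.126).

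The paralog ezh1 (ENSDARG00000037894), a weaker methyltransferase that in mammals prevails in cells that have stopped dividing, had 165.3, 136.0 and 209.1 normalized reads in the DMSO libraries and 139.9, 164.8 and 150.6 in the Tan I libraries. All Tan I libraries lay within the DMSO range. With means of 170.1 ± 36.8 and 151.8 ± 12.5 (SD, n = 3), the log2 fold change was -0.14, with an SE of 0.16 (limma adjusted p = 0.715), and it was 0.014 without DMSO replicate 3 and -0.29 without DMSO replicate 2. At 112 to 188 reads per library, counting alone gives a coefficient of variation of up to 9.45%.

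The share of ezh1 among the reads of both catalytic genes, which also depends on transcript length and is read here only across libraries, was 18.4%, 12.6% and 16.4% in the DMSO libraries. In Tan I it was 16.1%, 18.1% and 15.05%. The mean shares were 15.8% ± 2.94 and 16.4% ± 1.52 (SD, n = 3), and the groups overlapped. The exact binomial 95% interval of a single library was as wide as 15.7% to 21.3% (DMSO replicate 1) and covers counting error only.

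The core gene eed (ENSDARG00000099640) had 527.1, 529.4 and 484.9 normalized reads in DMSO and 461.7, 420.4 and 439.6 in Tan I. The DMSO libraries lay close together and all Tan I libraries were below them. They averaged 440.6 ± 20.7 against 513.8 ± 25.0 for DMSO (SD, n = 3), which gave a log2 fold change of -0.22 ± 0.085 (SE). This had the lowest p of the members (unadjusted p = 0.0216) and did not pass over all genes (limma adjusted p = 0.229). The difference was -14.2%, with a 95% interval from -24.4% to -2.61%. Over the 18 alternatives run the log2 fold change stayed between -0.26 and -0.19, with adjusted p between 0.0773 (limma with array quality weights) and 0.528.

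The scaffold gene suz12a (ENSDARG00000070256) had 574.5, 695.8 and 750.8 normalized reads in DMSO and 571.3, 558.0 and 628.9 in Tan I. As for ezh2, DMSO replicate 1 lay among the Tan I libraries and the remaining DMSO libraries above them. The log2 fold change was -0.19, with an SE of 0.10 (limma adjusted p = 0.394), -0.30 without DMSO replicate 1 and -0.11 without DMSO replicate 3. Its paralog suz12b (ENSDARG00000098924) had 1107, 1025 and 1280 in DMSO and 1122, 1063 and 1039 in Tan I. Here all Tan I libraries lay inside the DMSO range, and the log2 fold change was -0.076, with an SE of 0.086 (limma adjusted p = 0.726), or 0.012 without DMSO replicate 3.

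The share of suz12a among the reads of the suz12 pair was 34.2%, 40.4% and 37.0% in DMSO and 33.7%, 34.4% and 37.7% in Tan I. With means of 37.2% ± 3.15 and 35.3% ± 2.12 (SD, n = 3), no shift between the paralogs larger than the spread of the replicates was seen.

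Among the accessory subunits, jarid2a (ENSDARG00000060925), one of a pair encoding the DNA- and nucleosome-binding subunit JARID2, had 1132, 986.0 and 912.0 normalized reads in DMSO and 870.6, 946.6 and 832.0 in Tan I. Only Tan I replicate 2 reached the DMSO range. The means were 1010 ± 112 and 883.1 ± 58.3 (SD, n = 3), and the log2 fold change was -0.19, with an SE of 0.089 (limma adjusted p = 0.339), with -0.10 without DMSO replicate 1, the highest library.

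Its paralog jarid2b (ENSDARG00000062268), the only member with a log2 fold change above 0, had 137.6, 85.0 and 65.6 in DMSO and 112.7, 103.9 and 88.6 in Tan I. The highest and the lowest library were both DMSO libraries, 2.096-fold apart. The log2 fold change was 0.14, with an SE of 0.23 (limma adjusted p = 0.820), and it moved between -0.094 without DMSO replicate 3 and 0.43 without DMSO replicate 1. With 59 to 145 reads per library, jarid2b was the member with the fewest reads, and its 95% interval, from -21.7% to 55.9%, was the widest of the members. The share of jarid2b among the reads of the jarid2 pair was 10.8%, 7.94% and 6.71% in DMSO and 11.5%, 9.89% and 9.63% in Tan I, with means of 8.50% ± 2.12 and 10.3% ± 0.991 (SD, n = 3), and the groups overlapped.

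The gene aebp2 (ENSDARG00000006038), whose zinc finger product in mammals binds PRC2 together with JARID2, had 710.9, 774.7 and 739.6 normalized reads in DMSO and 652.2, 626.4 and 694.3 in Tan I. The groups did not overlap, with Tan I replicate 3 nearest to DMSO. The means were 741.7 ± 32.0 and 657.6 ± 34.3 (SD, n = 3). On the log2 scale the difference was -0.17 ± 0.078 (SE), which had an unadjusted p of 0.0438 and did not pass over all genes (limma adjusted p = 0.311). Over the alternatives run it lay between -0.21 and -0.14.

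Of the Polycomb-like genes, whose products in mammals bind unmethylated CpG-rich DNA, mtf2 (ENSDARG00000005590) had 513.2, 511.2 and 536.1 in DMSO and 507.6, 498.1 and 499.0 in Tan I. These groups did not overlap, but the gap was small. The log2 fold change was -0.052, with an SE of 0.078 (limma adjusted p = 0.808), and the 95% interval of the difference runs from -14.2% to 8.42%. The values of phf19 (ENSDARG00000078050) were 205.8, 204.0 and 272.5 in DMSO and 235.5, 194.7 and 209.9 in Tan I. DMSO replicate 3 stood above the other 5 libraries, and the log2 fold change was -0.082, with an SE of 0.13 (limma adjusted p = 0.825), or 0.054 without that library.

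**Figure D2:**
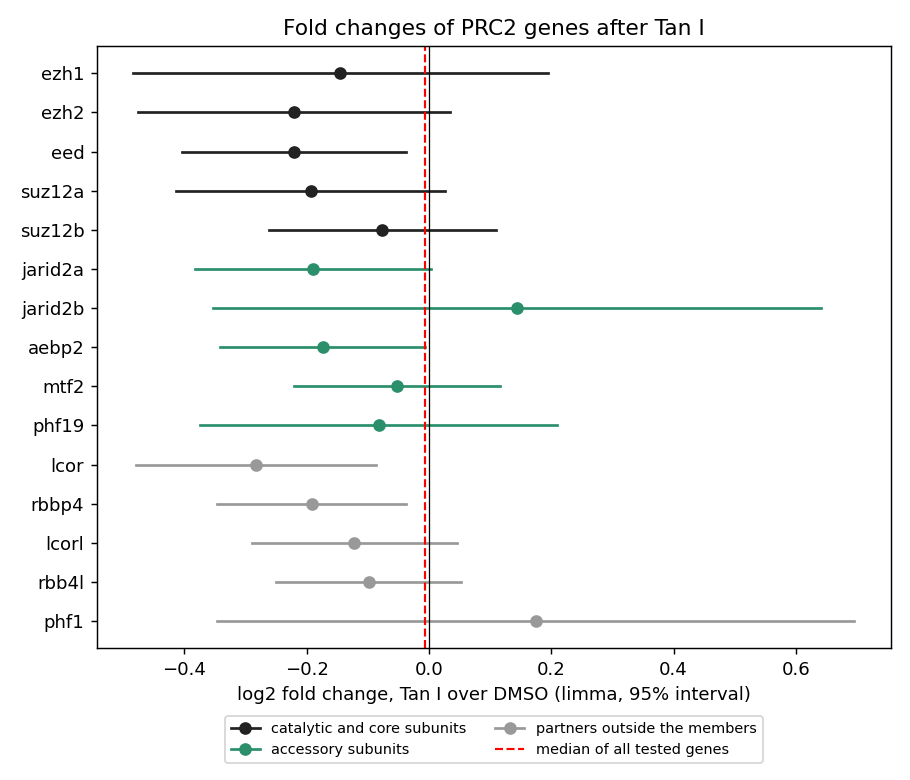
Log2 fold changes of Tan I over DMSO (x axis) for the catalytic and core subunits (black), the accessory subunits (green) and 5 PRC2 partner genes outside the members (grey), with 95% intervals from limma. The dashed line is the median of all tested genes, -0.0067. The intervals of eed, aebp2, lcor and rbbp4 lie below 0, and none of the 15 genes passed the threshold after adjustment over all genes.

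The catalytic and core subunits were then set beside the accessory ones. All 5 core genes had a log2 fold change below 0 (median -0.19), as had 4 of 5 accessory genes (median -0.082). Lower in Tan I without overlap were 1 gene in the core class and 2 in the accessory class, against 10.4% of all tested genes. Each class had 1 gene lower at an unadjusted limma p under 0.05, against 6.50% of all tested genes. With 5 genes in each class, these counts do not tell the classes apart. The gap between the medians depended on single libraries. Without DMSO replicate 3 the medians were -0.10 (core) and -0.094 (accessory), and without Tan I replicate 1 they were -0.18 and -0.16. The difference between the classes was not tested, since genes are not replicates.

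Summed over the 5 core genes, the normalized reads were 3107, 3328 and 3788 in DMSO and 3025, 2954 and 3109 in Tan I, so that DMSO replicate 1 was just below Tan I replicate 3. Over the 5 accessory genes the sum was 2699, 2561 and 2526 in DMSO and 2379, 2370 and 2324 in Tan I, without overlap. The mean sum in Tan I differed from that in DMSO by -11.1% in the core class and by -9.17% in the accessory class. A sum follows the genes with most reads. The core protein gene rbbp4, read below as a partner, is in neither sum, although its mean in DMSO was 3275. The ratio of the core sum to the accessory sum was 1.151, 1.300 and 1.4998 in DMSO and 1.272, 1.247 and 1.338 in Tan I. All Tan I ratios lay inside the DMSO range. A shift in the RNA balance of these core and accessory genes was thus not detectable beyond the spread of the control libraries.

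Over all 10 members the sum was 5806, 5889 and 6314 in DMSO (6003 ± 273, SD, n = 3). The Tan I sums were 5403, 5324 and 5432 (5386 ± 56.2). The groups did not overlap, and the means differed by -10.3%. This is given as a description with no test, since the members were chosen with results of these libraries known.

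**Figure D3:**
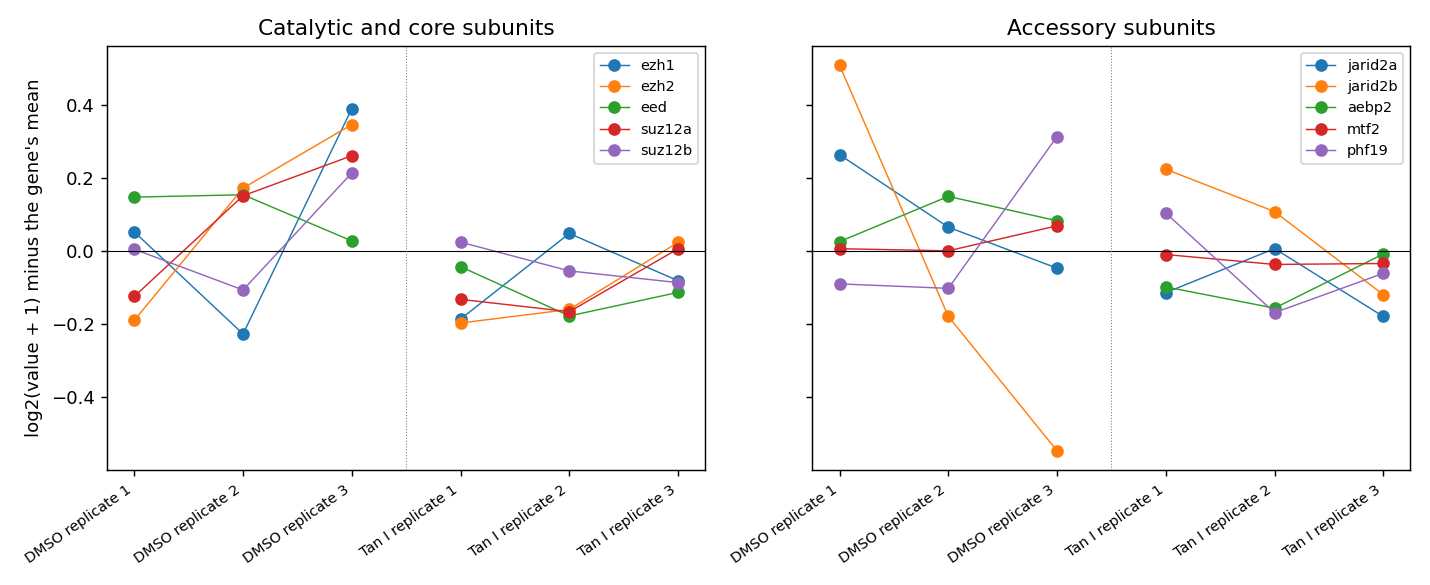
Each member's log2(value + 1) minus its own mean over the 6 libraries (y axis), by library (x axis), for the core (left) and accessory subunits (right). Thin lines join the points of a gene within a group only to help follow it, since replicates have no order. The DMSO points of ezh1, ezh2, suz12a, jarid2b and phf19 spread more widely than their Tan I points, and those of eed, aebp2 and mtf2 lie close together.

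Much of the variation of the members was between DMSO libraries. The coefficient of variation was larger in DMSO than in Tan I in 9 of 10 members, with aebp2 as the exception, against 49.1% of all tested genes. The ratio of the highest to the lowest DMSO library was 1.45 for ezh2, 1.54 for ezh1 and 1.31 for suz12a, against 1.17, 1.18 and 1.13 among the Tan I libraries. For ezh2 the coefficient of variation in DMSO was 18.3%, while counting alone gives at most 3.97%. The DMSO libraries did not differ in one direction for all subunits. DMSO replicate 3 was the highest DMSO library for 6 members (ezh1, ezh2, suz12a, suz12b, mtf2 and phf19) and the lowest for 3 (eed, jarid2a and jarid2b). DMSO replicate 1 was the lowest for ezh2, suz12a and aebp2 and the highest for jarid2a and jarid2b.

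**Figure D4:**
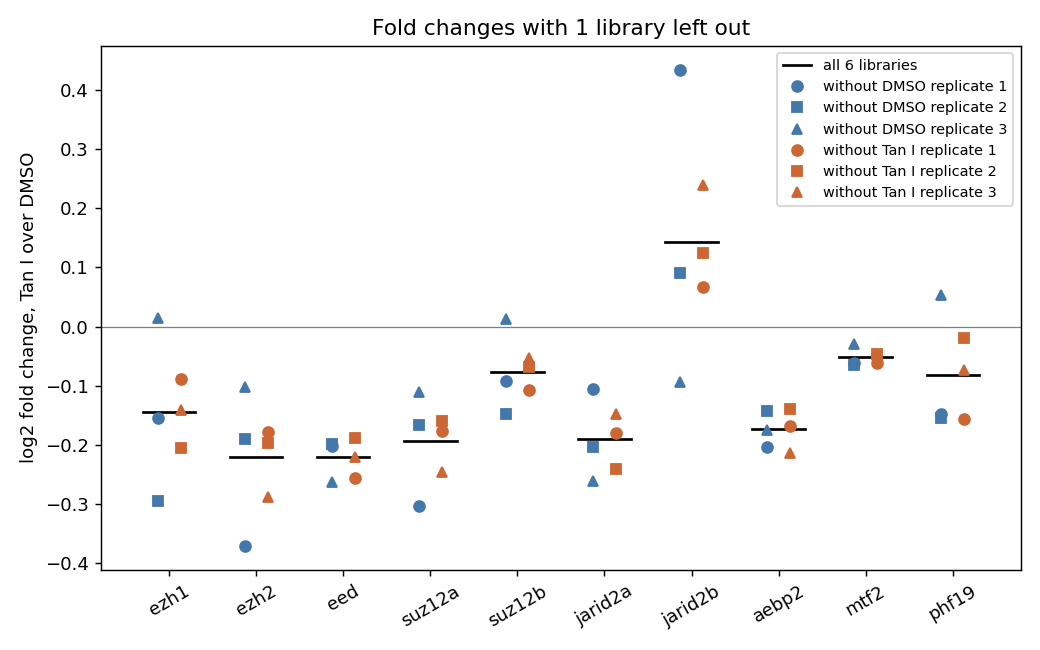
Log2 fold change of Tan I over DMSO (y axis) for each member with all 6 libraries (black bar) and with 1 library left out (blue for a DMSO library, orange for a Tan I library, symbols for replicates 1 to 3). Without DMSO replicate 3, ezh1, suz12b and phf19 move to above 0 and jarid2b to below 0, while the points of eed, aebp2 and mtf2 stay near the bar.

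The likeness of profiles was measured as the root-mean-square distance between log2(value + 1) profiles over the 6 libraries, each centred on its own mean. The member most like ezh2 was suz12a, at 0.0526, which ranked 7 among all 20835 other tested genes, and ezh2 ranked 25 for suz12a. The median distance of ezh2 to all other genes was 0.25. These distances rest on the same 6 libraries and are a description. The next members were aebp2 (0.146, rank 1268), phf19 (0.175), mtf2 (0.182) and suz12b (0.185). Then came eed (0.208), ezh1 (0.214) and jarid2a (0.273), and jarid2b was farthest (0.529, rank 19630). Thus the profiles of ezh2 and suz12a ran side by side in these libraries. The other core genes did not share this, since suz12b, eed and ezh1 ranked 3920, 6137 and 6767 for ezh2. The profile of jarid2b, the member with the fewest reads, was far from most genes, at a median distance of 0.369.

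Outside the complex, the 5 genes with profiles nearest to ezh2 were tbcc, a tubulin folding cofactor (0.0356), si:dkey-66i24.7 (0.0367), skp2, which encodes a ubiquitin ligase subunit of the cell cycle (0.0441), CABZ01041604.1 (0.0447) and eva1a (0.0451). As for ezh2, DMSO replicate 1 was the lowest DMSO library in each of them, which follows from choosing them by their profile. Their limma adjusted p ranged between 0.499 (tbcc) and 0.643 (si:dkey-66i24.7).

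Partners of PRC2 outside the members were read next. Of 9 listed symbols 5 were rows of the table, and 0 were called. At an unadjusted limma p under 0.05 there were 2, both lower in Tan I, against 6.50% of all tested genes in that direction. The median log2 fold change was -0.12, with 4 of 5 below 0. The gene lcor (ENSDARG00000100908), whose locus in mammals also encodes a PRC2-binding protein of the PALI family, had 384.9, 408.0 and 362.6 normalized reads in DMSO and 313.3, 319.3 and 315.8 in Tan I. The groups did not overlap, and the log2 fold change of -0.28 ± 0.091 (SE) did not pass (limma adjusted p = 0.147). The histone-binding core protein gene rbbp4 (ENSDARG00000029058) had 3010, 3368 and 3446 in DMSO and 2845, 2731 and 3016 in Tan I. Tan I replicate 3 was just above DMSO replicate 1, and the log2 fold change was -0.19, with an SE of 0.072 (limma adjusted p = 0.216). The groups also overlapped for the histone-binding rbb4l, at -0.098 ± 0.070 on the log2 scale (SE, limma adjusted p = 0.546), and for lcorl, at -0.12 ± 0.077 (SE, limma adjusted p = 0.487). The Polycomb-like gene phf1 was weak, at 29 to 58 reads per library, and its log2 fold change was 0.17, with an SE of 0.24 (limma adjusted p = 0.788).

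Transcription factor genes that PRC2 is known to hold silent in other cell types were described as a list of 42 symbols, of which 40 were tested. Of these, 1 was called higher and 1 lower, against 2.57% of all tested genes in either direction (431 higher and 105 lower of 20836). Homeobox gene dlx3b, of the preplacodal ectoderm and ear, had 486.6, 500.3 and 542.8 normalized reads in DMSO and 696.5, 602.0 and 671.1 in Tan I (log2 fold change 0.36 ± 0.086 SE, limma adjusted p = 0.0452). The eye and brain gene pax6a had 1580, 1674 and 1594 in DMSO and 1269, 1347 and 1329 in Tan I (log2 fold change -0.30 ± 0.066 SE, limma adjusted p = 0.0313). In neither gene did the groups overlap, but the calls depended on single libraries and on the variance model. With any DMSO library or Tan I replicate 1 or 2 left out, or without the mean-variance trend of limma, 0 genes of the list were called, and 1 was called without Tan I replicate 3 and under quantile normalization. In other alternatives 3 were called: a pseudocount of 10, genes with a mean of at least 100, array quality weights, DESeq2 and the replicate block.

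The others with the smallest p were isl1 (-0.27, limma adjusted p = 0.0502) and pax6b (-0.18, limma adjusted p = 0.301) in the lower direction and msx1b (0.31, limma adjusted p = 0.194) and foxg1a (0.26, limma adjusted p = 0.216) in the higher direction. The list had 23 genes above 0 and 17 below (median 0.072). At an unadjusted limma p under 0.05 it had 5 genes higher and 4 lower, against 8.77% and 6.50% of all tested genes. It had 5 non-overlapping genes each way, against 10.7% of all genes in the higher and 10.4% in the lower direction. Its median was 0.028 with DMSO replicate 1 left out and 0.039 with DMSO replicate 2 left out. Leaving out Tan I replicates 1, 2 or 3 in turn gave 0.031, 0.048 and 0.025, and the median was 0.0081 for genes with a mean of at least 100. Its summed normalized reads, 23149 ± 363 for DMSO against 23110 ± 174 for Tan I (SD, n = 3), overlapped between the groups. Photoreceptor markers, whose summed level in DMSO ranged between 104389 and 114813 and in Tan I between 83178 and 88414, were lower in the same libraries as pax6a (1 of 9 called higher and 5 lower), and their part in the pax6a result was not tested.

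Genes of dividing cells, in which ezh2 RNA is usually abundant, were read beside the subunits. Of 30 rows for 29 proliferation genes 24 had a log2 fold change below 0 (median -0.10), against 51.5% of all tested genes. In the lower direction 8 did not overlap and in the higher 0, against 10.4% and 10.7% of all genes. At an unadjusted limma p under 0.05 there were 5, all lower, against 6.50% of all genes in that direction, and 0 were called. With array quality weights 3 were called, and 1 was called after thinning and 1 without Tan I replicate 3. The replicative helicase genes mcm2 (-0.26 ± 0.069 SE, limma adjusted p = 0.0767), mcm3 (-0.27 ± 0.074 SE, limma adjusted p = 0.0825) and mcm6 (-0.22 ± 0.069 SE, limma adjusted p = 0.131) had the smallest p. Among the 6 rows above 0 the smallest p were those of ccnb1 (0.13, limma adjusted p = 0.469), the E2F repressor e2f7 (0.087, limma adjusted p = 0.780) and cdk1 (0.033, limma adjusted p = 0.884). The mitotic genes did not move as a group. While kif11 (-0.14), ccnb2 (-0.14) and ccna2 (-0.13) were below 0 and not called, others lay near 0. These were tpx2 (-0.053), bub1 (-0.044), plk1 (-0.042), aurka (-0.012), aurkb (0.0049) and top2a (0.0049). The summed level was 47568, 48736 and 47527 in DMSO and 46180, 43011 and 44385 in Tan I, without overlap and with means that differed by -7.13%. Its part in the values of ezh2, eed and the other subunits was not tested.

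Markers of other cell types in the embryo were read by their summed levels. Counts of called markers stand against 2.57% of all tested genes in either direction (431 higher and 105 lower of 20836). The sum of the erythroid markers was lower in Tan I (35638 to 41065 in DMSO, 30511 to 31880 in Tan I, with 1 of 7 called lower), as was that of photoreceptors, given above. The erythroid sum follows hbae3, the marker with most reads (-0.33, limma adjusted p = 0.0659). By gene, 6 of 7 had a log2 fold change below 0, among them hbbe2, the gene called lower (-0.80, limma adjusted p = 0.00432), and hbbe1.1 at -0.054. In the other direction, slc4a1a was at 0.32 (limma adjusted p = 0.263). The globin gene hbbe3, which is not in the list or its sum, was called higher (log2 fold change 2.82, limma adjusted p = 0.000432). Its means were 18.0 in DMSO and 140.4 in Tan I, so globin RNA did not move in 1 direction. The sum of the list labelled neutrophil was higher (2188 to 2515 in DMSO and 2756 to 3020 in Tan I), but only il6r of its 5 genes was called (log2 fold change 1.34). The gene with most reads in this sum was cpa5, with means of 1103 in DMSO and 1170 in Tan I. The sum is therefore not read as a level of neutrophils. The others were not called, with mpx at 0.40 (limma adjusted p = 0.103) and lyz at 0.43 (limma adjusted p = 0.290). Changes were small in cpa5 (0.090, limma adjusted p = 0.666) and nccrp1 (0.076, limma adjusted p = 0.757). Whether the number of neutrophils differed was not tested. The macrophage markers did not move as 1 list. Their sum was 508.8 to 593.0 in DMSO and 620.8 to 746.2 in Tan I, which follows csf1ra, the marker with most reads, while 3 of 5 (marco, mfap4 and mpeg1.1) had a log2 fold change below 0, the median was -0.15 and 0 were called. The sums of the blood stem and progenitor markers overlapped (2305 to 2323 in DMSO and 2260 to 2371 in Tan I, with 0 of 6 called). Most of these reads were from myb, with means of 1612 in DMSO and 1646 in Tan I. Since all libraries carried the hyperactive c-myb transgene, myb is not a plain marker of these cells here. By gene, 2 had a log2 fold change below 0 and 4 above (median 0.022). Overlap was also seen for neurons (32297 to 35140 in DMSO, 30047 to 33756 in Tan I, 0 of 7 called) and neural progenitors (11814 to 13270 in DMSO, 11091 to 13727 in Tan I, 0 of 10 rows called). Skeletal muscle markers summed to between 300906 and 343449 in DMSO and between 285652 and 341279 in Tan I, with 0 of 6 called. The liver sums were 100203 to 111580 in DMSO and 91827 to 108083 in Tan I, with 1 of 6 called lower. The epidermis sums were 129519 to 184668 in DMSO and 110658 to 152557 in Tan I, with 1 of 5 called higher (cldne, 0.32, limma adjusted p = 0.0314). In that list 3 of 5 genes had a log2 fold change below 0, krt4 (-0.47), cyt1 (-0.34) and krt5 (-0.10), none of them called. All marker genes found in the table had reads in every library. The part of cell composition in the subunit values was not tested.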

How the data were processed

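Reads of 3 DMSO and 3 Tan I libraries of zebrafish embryos were paired-end Illumina. According to the study's methods and the submitters' processing notes they were aligned to GRCz11 with STAR, multi-mapping reads were removed, and genes were counted with featureCounts and tested with DESeq2. Versions and strand use are not given in the sources used here, so reads of antisense or overlapping genes may be included. The deposited signal values are read counts scaled by the authors with a size factor for each library. The authors also deposited their own log2 fold change, standard error, test score and p-value columns, which were not used. No column lacked a sample (0). Groups and replicate numbers came from the sample titles.

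Every value was a whole multiple of the value of 1 read (100% within 0.001), and these recovered reads were used for alternatives only. Genes with means under 7.54, the lowest in the table, were not analysed here. The test used log2(value + 1), a scale on which changes of weak genes come out too small. It was run on the 20836 genes whose mean reached 10 (481 did not), with limma 3.58.1 (lmFit, eBayes with a trend, no covariate, two-sided) in R 4.3.3, with Benjamini-Hochberg adjustment over all of them and a threshold of 0.05. Alternatives were other pseudocounts, filters and scalings, limma without the trend or with array quality weights, edgeR 4.0.16 and DESeq2 1.42.0 on recovered reads, reads thinned to the smallest library, the replicate number as a block, and each library left out. The fits were tested on simulated data in which every set change was larger than that of any member. How well changes as small as those of the members are found was not tested.

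Members and gene lists were chosen with earlier results of these data known. The members and every measured PRC2 partner are named. From the transcription factor and proliferation lists the 3 genes of lowest p are named in each direction, or fewer where a direction had fewer. The mitotic genes kif11, ccnb2, ccna2, tpx2, bub1, plk1, aurka, aurkb and top2a are named besides, and for ezh2 the 5 tested genes with the most similar profile. Marker lists are given by counts and ranges, and every row of a repeated symbol was used. Single genes are named for the erythroid, neutrophil, macrophage, blood stem and progenitor, and epidermis lists. The globin gene hbbe3, outside the lists, is named besides. Of the table's gene IDs 20509 matched a table of zebrafish gene names. The RefSeq annotation used for names, GRCz12tu, is another build, so no coordinates are given. Intervals and p-values cover counting error or the spread between these libraries only.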

Additional observations from a re-analysis of the deposited data

How the results depend on the processing

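No member was called in any of the alternatives run (0 of the members throughout), and the log2 median over all genes moved by less than 0.1 under each scaling. The count of 536 genes called over the table was 165 without the mean-variance trend, 984 with array quality weights, and between 214 and 700 with 1 library left out. Members with an unadjusted p under 0.05 (2 in the report) numbered 1 without the trend, with edgeR, with DESeq2 and after thinning, 4 with array quality weights, and 0 to 4 with 1 library left out. Members lower without overlap (3 in the report) numbered 2 after thinning to the smallest library. With 1 library left out they numbered 3 to 5, where fewer samples leave less room for overlap. The median of the members ranged between -0.16 and -0.098 with 1 library left out, that of the accessory subunits between -0.16 and -0.047. The latter was -0.13 for genes with a mean of at least 100, where jarid2b was not tested, and -0.13 after thinning. Signs turned for ezh1 with array quality weights (0.0015) and, without DMSO replicate 3, for ezh1 (0.014), suz12b (0.012), jarid2b (-0.094) and phf19 (0.054). With 1 library left out, ezh1 reached -0.29, suz12b -0.15 and jarid2b 0.43, the other ends of their ranges, and phf19 -0.16. The deviations of same-numbered libraries correlated across genes with r of 0.0815, -0.0289 and 0.208 (replicates 1, 2 and 3). Of these only replicate 3 exceeded 0.1. The main fit was planned without covariates and did not take the numbers as pairs. Libraries of different number gave r between -0.181 (DMSO replicate 1, Tan I replicate 3) and 0.103 (DMSO replicate 1, Tan I replicate 2). A second component, holding 21.3%, ordered replicates 1, 2 and 3 alike in both groups. Their positions were 26.6, 2.39 and -21.2 in DMSO and 7.52, 2.32 and -17.6 in Tan I. Whether same-numbered libraries shared an effect behind this order was not tested. With the replicate block 1093 genes were called, 5 members had an unadjusted p under 0.05, 4 proliferation genes were called, and the lowest adjusted p of a member was 0.126 (ezh2). The shares of all genes with such an unadjusted p, or without overlap between the groups, were worked out for the main fit only. The member counts at that p and without overlap under the alternatives therefore have no background beside them. Where no cause is given, the cause was not tested. Depth limits jarid2b and phf1 most.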
